A study of Mus musculus with 6 samples.

Results

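The receptors described here are 6 G protein-coupled receptor genes, Gpr174 and 5 others (P2ry10, Gpr132, Gpr171, Gpr18 and Gpr34). They were picked by name as receptors for lysophospholipids or other small lipids or as orphan receptors of lymphocytes. Earlier results of these data were known when they were chosen. The study's paper reports P2ry10, Gpr132 and Gpr171 as higher with Gpr174 intact than without it after a longer culture. The share called among the 6 is therefore no independent measure of such receptors. All 6 had a row among the 12431 genes of the 1 h count table, and 5 of them had enough reads to be tested among 10514 genes. RNA was taken from follicular B cells sorted from mouse spleen as CD21/35- CD23+ and cultured for 1 h in complete medium without a stimulus. WT cells came from adult male mice with an intact X-linked gene (Gpr174+/Y) and KO cells from adult male Gpr174-/Y mice, with 3 libraries of each genotype. In the KO allele, a tdTomato reporter in frame replaces the single coding exon of Gpr174 in every cell, from the germ line on. The line was made in 129 embryonic stem cells and then backcrossed to C57BL/6J, so sequence around the gene on the X chromosome can differ between the genotypes along with the allele.

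GPR174, P2RY10 and GPR34 are receptors for lysophosphatidylserine (lysoPS), a lipid made when a fatty acid chain is cut from the membrane lipid phosphatidylserine. GPR174 couples to Gs, which activates adenylyl cyclase and raises cAMP. GPR132 belongs to the family of proton-sensing receptors and responds to oxidised fatty acids. GPR18 has N-arachidonylglycine as a proposed ligand, and GPR171 was long classed as an orphan receptor.

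In the GENCODE M21 annotation of mm10, 3 of the 6 genes lie on the X chromosome. Gpr174 spans chrX:107255878-107296769 on the plus strand, and its coding sequence, at chrX:107292584-107293588, lies in 1 exon that is followed by 3176 bases of 3′ untranslated region in the longest transcript. P2ry10 spans chrX:107088492-107104974 on the same strand and ends 151 kb before Gpr174 begins. Gpr34 is far from both, at chrX:13632089-13640858 on the plus strand. Gpr132 lies at chr12:112850873-112868228, Gpr171 at chr3:59096448-59101821 and Gpr18 at chr14:121911253-121915781, all on the minus strand.

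The promoters are shown because several of these genes were higher in WT and because cAMP-responsive factors bind the element TGACGTCA or its core TGACG. Promoter windows from RefSeq (GRCm38.p6), from 250 bases before to 50 bases after a start site, were found for 4 of the 6 genes, with 2 start sites for P2ry10. Gpr171 and Gpr34 had no entry. The study's paper cites a prediction of a conserved cAMP response element with a TATA box for Gpr171, which was not examined here. None of the windows found for the other 4 genes held TGACGTCA, which reads the same on both strands and occurred in 1.79% of 32851 promoter windows. The core TGACG, on either strand and counted also inside TGACGTCA, occurred in 20.8% of windows. It was found once in the Gpr132 window and once in the window of the second P2ry10 start, and not in those of Gpr174, Gpr18 or the first P2ry10 start. Capitals mark the core in the lines that follow, each read 5′ to 3′ on the strand of its gene, and a match is a description of the letters only.
Gpr132, chr12:112861012-112861040, minus strand, core 112 bases before the start: gtgatgtaagccTGACGctagcctgcgtt
P2ry10, chrX:107089218-107089246, plus strand, core on the opposite strand 103 bases before the start: acacttgattaaCGTCAtctgctcaaggg

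The libraries held 8452460 to 10944833 counts each. Levels are given as CPM, a gene's counts scaled to the library's total with TMM factors. The sequencing kit primes at the poly(A) tail, so a read stands for a transcript rather than for a stretch of its length, and levels of different genes are given both as CPM and as CPM per kilobase of the longest transcript. A gene was called where its adjusted p was under 0.05 in edgeR's quasi-likelihood test over all genes tested. By that rule 1.82% of the tested genes were called, 1.3% as higher in WT, and the WT and KO libraries did not overlap in 16.7% of tested genes.

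Of the 5 receptor genes tested, 4 were called higher in WT (P2ry10, Gpr132, Gpr171 and Gpr174) and 1, Gpr18, was called lower in WT. In all 5 the 3 WT libraries did not overlap the 3 KO libraries. P2ry10 and Gpr132 had the strongest support, whereas the calls for Gpr174, Gpr18 and Gpr171 were lost in some fits that left out 1 library. Their direction was kept in all of those fits. The log2 fold changes there were 0.31 to 0.39 for Gpr174, 0.33 to 0.46 for Gpr171 and -0.44 to -0.31 for Gpr18. Each such fit also called fewer genes in all than the fit on 6 libraries. Bulk RNA cannot tell fewer cells that express a gene from less of its RNA per cell.

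**Figure D1:**
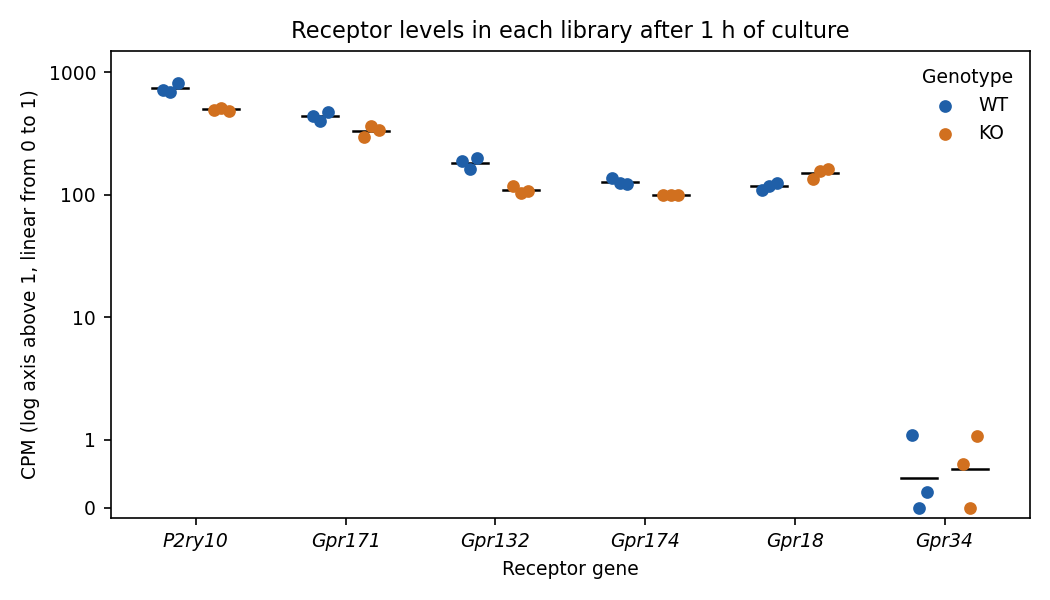
Level of each of the 6 receptor genes, in CPM, in the 3 WT libraries (blue) and the 3 KO libraries (orange), with a line at each group mean and a vertical axis that is logarithmic above 1. WT points lie above KO points for P2ry10, Gpr171, Gpr132 and Gpr174 and below them for Gpr18, while Gpr34 stays at or below 1.098 CPM.

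Reads were assigned to Gpr174, the targeted gene, in KO as well as in WT. The WT libraries had 135.9, 125.5 and 121.5 CPM, and the KO libraries 99.84, 100.2 and 99.82 CPM. Every WT library was above every KO library, and KO cells kept 78.3% of the WT mean. The WT mean was 127.6 CPM ± 7.43 and the KO mean 99.95 CPM ± 0.206 (SD, n = 3). WT exceeded KO by 0.35 ± 0.09 on the log2 scale (SE; edgeR adjusted p 0.0359). Leaving out any library other than WT replicate 2 ended the call, in 5 of 6 such fits, with edgeR adjusted p values from 0.041 to 0.168 over the 6. It was also lost when the GC content of the last 500 bases of the transcript was taken into account, where the log2 fold change was 0.30 and the adjusted p 0.106. The KO libraries lay closer together than counting alone would place them, with a counting SD of 3.14 CPM. The count table does not say where within the gene a read lay, and Gm9208, a pseudogene on the opposite strand within Gpr174, was not analysed here. A count for Gpr174 is therefore no check of the genotype labels and does not measure the deleted coding exon.

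P2ry10, the other lysoPS receptor near Gpr174 on the X chromosome, was at 712.9, 690.9 and 817.0 CPM in the WT libraries. In the KO libraries it was at 490.9, 515.7 and 484.2 CPM. The groups were far apart, with the lowest WT library well above the highest KO library. The means were 740.2 CPM ± 67.3 in WT and 496.9 CPM ± 16.6 in KO (SD, n = 3), so the KO mean was 67.1% of the WT mean. On the log2 scale WT exceeded KO by 0.57 ± 0.07 (SE; edgeR adjusted p 4.58e-06), and by p the gene ranked at 19 among all tested genes. The call was kept in all 6 fits that left out a library, with edgeR adjusted p values up to 0.000505 and log2 fold changes of 0.50 to 0.62. P2ry10 has a close paralog, P2ry10b, in the gap before Gpr174, which was not analysed here, so any reads that both genes share make the P2ry10 count uncertain.

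Gpr34, the remaining lysoPS receptor, was barely detected. It had 12, 0 and 2 counts in the WT libraries and 7, 0 and 11 counts in the KO libraries, 32 in all. The highest library reached 1.098 CPM. Genotypes overlapped, and the gene fell below the filter on low counts, so no test was made. Cask overlaps Gpr34 on the opposite strand, at 0.654 to 3.07 CPM over the 6 libraries, so with the use of strand unknown the few Gpr34 counts are uncertain. In the 2 libraries without a read, a count of 0 allows a level of up to 0.358 CPM in WT replicate 2 and 0.327 CPM in KO replicate 2, for counting error only.

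Gpr132 showed the largest fold of the 5 tested receptors. The WT libraries had 188.2, 162.4 and 198.1 CPM, and the KO libraries 116.8, 104.3 and 106.5 CPM. No KO library reached the level of any WT library. The means were 182.9 CPM ± 18.4 and 109.2 CPM ± 6.66 (SD, n = 3), and the KO mean was 59.7% of the WT mean. WT exceeded KO by 0.74 ± 0.09 on the log2 scale (SE; edgeR adjusted p 4.75e-06). This call too was kept in all 6 fits that left out a library, with log2 fold changes of 0.68 to 0.82 and edgeR adjusted p values up to 0.000674. Among all tested genes, 5.2% had a larger absolute log2 fold change than Gpr132 and 8.81% a larger one than P2ry10.

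For Gpr171 the WT libraries had 440.6, 403.2 and 478.2 CPM, and the KO libraries 298.7, 363.5 and 339.8 CPM. WT was again higher in every library, although WT replicate 2 and KO replicate 2 were close. The means were 440.7 CPM ± 37.5 and 334.0 CPM ± 32.8 (SD, n = 3). WT exceeded KO by 0.40 ± 0.08 on the log2 scale (SE; edgeR adjusted p 0.0037). Leaving out WT replicate 3 raised the edgeR adjusted p to 0.0524 and leaving out KO replicate 1 raised it to 0.058, and both ended the call. The gene lies inside Med12l, which is on the opposite strand, and whether strand was used in counting is not given in the sources used here. Med12l itself had 5.48 CPM in WT against 4.23 CPM in KO.

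Gpr18 went the other way. The WT libraries had 108.9, 118.7 and 125.1 CPM, and the KO libraries 134.5, 157.5 and 162.0 CPM. Every KO library was above every WT library. The means were 117.5 CPM ± 8.18 and 151.4 CPM ± 14.8 (SD, n = 3), so KO reached 129% of the WT mean. The log2 fold change of WT over KO was -0.37 ± 0.09 (SE; edgeR adjusted p 0.0351). Leaving out WT replicate 1 or 3, or KO replicate 2 or 3, ended the call, with an edgeR adjusted p as high as 0.262. It also missed the threshold under limma-voom (adjusted p 0.0524) and without robust dispersions (0.0538). Ubac2 overlaps Gpr18 on the opposite strand, and its level was 49.5 CPM ± 5.76 in WT and 54.6 CPM ± 1.39 in KO (SD, n = 3; log2 fold change -0.14, edgeR adjusted p 0.733).

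**Figure D2:**
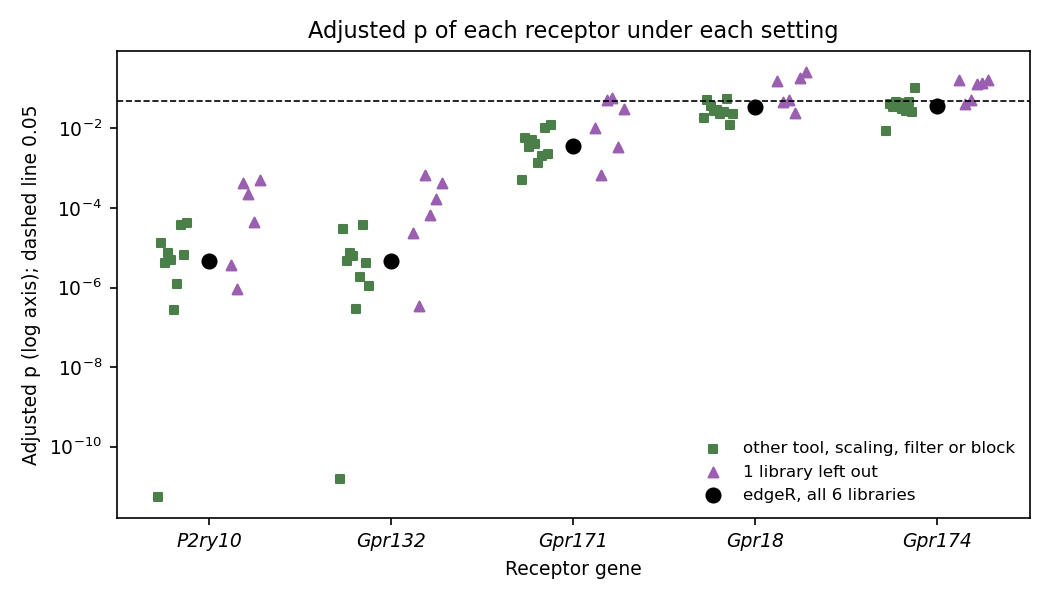
Adjusted p of each tested receptor gene on a logarithmic axis, with the test on all 6 libraries in black, fits without 1 library as purple triangles and other tools, scalings, filters, GC offsets or the replicate block as green squares. All points for P2ry10 and Gpr132 lie below the dashed line at 0.05, whereas some for Gpr171, Gpr18 and Gpr174 lie above it.

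As CPM, the order of mean levels in WT was P2ry10, Gpr171, Gpr132, Gpr174, Gpr18 and Gpr34. Only Gpr174 and Gpr18 overlapped among these neighbours, with Gpr18 between 108.9 and 125.1 CPM. In KO the order was P2ry10, Gpr171, Gpr18, Gpr132, Gpr174 and Gpr34, and no neighbours overlapped. Per kilobase of transcript, Gpr18 came before Gpr132 in WT as well, at 78.5 ± 5.46 against 73.8 ± 7.43 CPM per kilobase (SD, n = 3), but their libraries overlapped. On that scale Gpr174 was the lowest of the 5 tested genes in both genotypes, at 25.0 ± 1.45 CPM per kilobase in WT and 19.6 ± 0.0403 in KO, below P2ry10 at 256 ± 23.3 and 172 ± 5.74.

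The 6 genes added up to 1501 to 1740 CPM in the WT libraries and 1141 to 1241 CPM in the KO libraries, without overlap. P2ry10 made up 44.9% to 46.9% of that sum in WT and 40.6% to 43.0% in KO. Gpr18 made up 6.86% to 7.91% in WT and 11.8% to 13.6% in KO.

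To compare each fold with that of Gpr174, the level of each gene was divided by the Gpr174 level of the same library. In this ratio the scaling of the library cancels. In KO, Gpr174 carries the altered allele, and its count does not measure the deleted coding exon. The divisor may therefore not be the same transcript in both genotypes. For P2ry10 the ratio of CPM was 5.83 ± 0.789 in WT and 4.97 ± 0.155 in KO (SD, n = 3). For Gpr132 it was 1.44 ± 0.174 in WT and 1.09 ± 0.0679 in KO. Both ratios were higher in every WT library than in any KO library. For Gpr171 the ratio was 3.46 ± 0.409 in WT and 3.34 ± 0.323 in KO, and the libraries overlapped. For Gpr18 it was 0.926 ± 0.116 in WT and 1.51 ± 0.147 in KO, without overlap.

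On the log2 scale, the fold of P2ry10 exceeded that of Gpr174 by 0.22 and that of Gpr132 exceeded it by 0.39. Each had a two-sided exact permutation p of 0.1 over 3 against 3 libraries, the smallest p this design allows, or 0.133 when adjusted over the 4 genes compared. The difference for P2ry10 was 0.113 without WT replicate 3, and 0.203 to 0.292 without any other library. Gpr18 differed from Gpr174 by -0.71 on the log2 scale, also with an exact p of 0.1 (adjusted 0.133). The fold of Gpr171 differed from that of Gpr174 by 0.05, with an exact permutation p of 0.7 (adjusted 0.7). This difference turned to -0.045 without WT replicate 3 and to -0.027 without KO replicate 1. In limma on the ratios of all tested genes to Gpr174, the differences had standard errors of 0.13 for P2ry10 and Gpr132 and of 0.14 for Gpr171 and Gpr18. The limma adjusted p values were 0.218 for P2ry10, 0.0784 for Gpr132, 0.781 for Gpr171 and 0.0596 for Gpr18 over all tested genes. The unadjusted limma p values were 0.135 for P2ry10, 0.0221 for Gpr132, 0.723 for Gpr171 and 0.00244 for Gpr18.

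**Figure D3:**
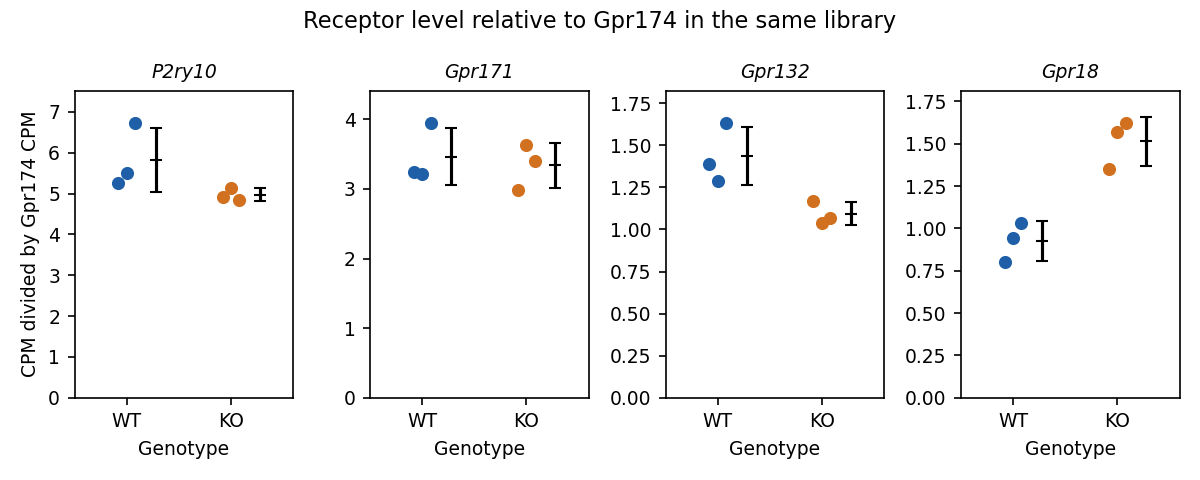
CPM of 4 receptor genes divided by the Gpr174 CPM of the same library, in WT (blue) and KO (orange), with the mean and SD beside the points and each vertical axis starting at 0. The groups are apart for P2ry10, Gpr132 and Gpr18 and overlap for Gpr171.

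Related receptors and the enzymes that make or remove lysoPS were examined as 4 lists of 81 genes in all, of which 47 had a row and 32 were tested. None of the 32 was called in edgeR, against 1.82% of all tested genes, and 3 had an unadjusted edgeR p under 0.05. The share of all tested genes with such a p is not given here. In simulated data the same fit recovered 75% of genes with an absolute log2 change of 1 and 32% with 0.5. The changed genes there were drawn only from genes above a minimum mean count. These shares therefore do not cover the listed genes with the fewest counts. A gene that was not called is therefore not shown to be unchanged. DESeq2 called 1 of the 32, Gpr183, and limma-voom called none. The median log2 fold change of the 32 was -0.02, against -0.003 for all genes tested, with 15 above 0 and 17 below.

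Of 36 other lipid receptors, 14 were tested, 3 of them above 0 and 11 below, with a median log2 fold change of -0.11. S1pr1, the sphingosine 1-phosphate receptor for exit from lymphoid tissue, averaged 578.2 CPM ± 61.0 in WT and 592.6 CPM ± 34.3 in KO (SD, n = 3; log2 fold change -0.04, edgeR adjusted p 0.899). Gpr183, the oxysterol receptor that positions B cells, is the next annotated gene counted after Gpr18, 36.8 kb away. It averaged 533.8 CPM ± 70.5 in WT and 669.4 CPM ± 79.2 in KO (SD, n = 3). Its log2 fold change was -0.33 ± 0.10 (SE; edgeR adjusted p 0.137). DESeq2 gave an adjusted p of 0.0422. Leaving out WT replicate 2 gave an edgeR adjusted p of 0.00785, and leaving out KO replicate 1 gave 0.0249.

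Among 21 P2Y-like and proton-sensing receptors, 5 were tested and all 5 had a log2 fold change above 0, with a median of 0.59, though 4 of them were at or below 7.46 CPM in WT. Gpr65, a proton-sensing relative of Gpr132 that couples to Gs, averaged 125.3 CPM ± 9.75 in WT and 111.2 CPM ± 6.73 in KO (SD, n = 3; log2 fold change 0.17, edgeR adjusted p 0.486). P2ry14, a receptor for UDP-sugars that lies 12034 bases from Gpr171, was at 7.46 CPM ± 5.28 and 5.56 CPM ± 0.891 (log2 fold change 0.41, edgeR adjusted p 0.759). Among 16 other receptors that couple to Gs, 7 were tested, with a median log2 fold change of -0.03. Ptger4, a prostaglandin E2 receptor, averaged 73.6 CPM ± 12 in WT and 75.1 CPM ± 12.6 in KO (log2 fold change -0.03, edgeR adjusted p 0.958).

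Of 14 genes of lysoPS metabolism, 9 were tested, none of them with an unadjusted p under 0.05 in edgeR, and their median log2 fold change was 0.09. Ptdss1, which makes phosphatidylserine, averaged 76.6 CPM ± 4.16 in WT and 72.0 CPM ± 2.29 in KO (SD, n = 3; log2 fold change 0.09, edgeR adjusted p 0.8). Abhd16a, the lipase that yields lysoPS, was at 60.2 CPM ± 3.49 and 56.3 CPM ± 7.43 (log2 fold change 0.09, edgeR adjusted p 0.823).

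**Figure D4:**
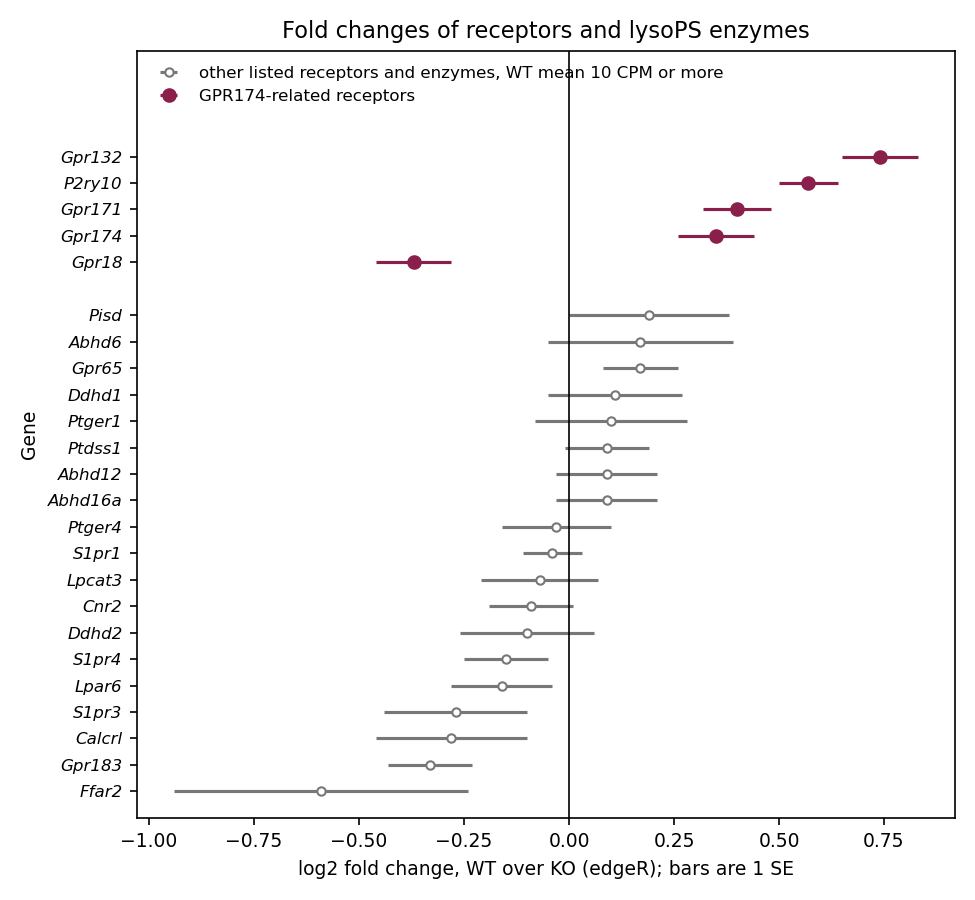
Log2 fold change of WT over KO with its SE for the 5 tested receptor genes (filled) and for the listed receptors and enzymes with a WT mean of 10 CPM or more (open). Gpr132, P2ry10, Gpr171 and Gpr174 lie between 0.35 and 0.74 and Gpr18 at -0.37, and none of the open points was called.

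The genomic surroundings were read in the same fit, since the KO allele changes 1 locus. Around the 6 genes, 23 annotated neighbours were counted and 17 tested, with a median log2 fold change of 0.12. Of the 17, 5 had an unadjusted edgeR p under 0.05. Apart from the receptors themselves, 1 was called, Usp9x, against 1.82% of all tested genes. Usp9x, a deubiquitinase gene 459 kb before Gpr34, averaged 88.2 CPM ± 16.0 in WT and 64.1 CPM ± 2.79 in KO (SD, n = 3; log2 fold change 0.46, edgeR adjusted p 0.0344). Fits without 1 library are not given here for Usp9x. Ddx3x, 338 kb before Gpr34, had a log2 fold change of 0.18 (edgeR adjusted p 0.211). Near Gpr174 on the far side from P2ry10, Itm2a averaged 3.21 CPM ± 0.436 in WT and 4.55 CPM ± 0.827 in KO (log2 fold change -0.50, edgeR adjusted p 0.714). The next gene on that side, 2610002M06Rik, had a log2 fold change of -0.12 (edgeR adjusted p 0.857). An effect of the allele on P2ry10 through their shared locus cannot be told apart here from one of the lost receptor.

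Likeness of pattern was measured as the root mean square difference of log2 CPM, each gene centred on its own mean over the 6 libraries, over the 7488 genes averaging 10 CPM or more. Nearest to Gpr174 were Lclat1 (0.025), Fam102b (0.029) and Slc2a1 (0.032), against a median of 0.233 over all those genes. Nearest to P2ry10 were Samd8 (0.047), Kpna1 (0.069) and Pde4b (0.071), a cAMP phosphodiesterase. For Gpr132 they were Kctd12 (0.084), Litaf (0.093) and Got1 (0.097), and for Gpr171 Rab43 (0.035), Sla (0.064) and Sh3pxd2a (0.065). The medians were 0.329 from P2ry10, 0.409 from Gpr132 and 0.271 from Gpr171. Between receptors, P2ry10 was at 0.119 from Gpr132, 0.113 from Gpr171 and 0.158 from Gpr174, and at 0.477 from Gpr18. Gpr132 was at 0.217 from Gpr171 and at 0.224 from Gpr174, close to the median of 0.233 from Gpr174. Gpr171 was at 0.128 from Gpr174.

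The sorted cells carried B cell genes, with Ms4a1 at 1274 to 1298 CPM in WT libraries and 1302 to 1413 CPM in KO libraries. Fcer2a, which encodes CD23 of the sort, had 403.4 to 447.9 CPM in WT libraries and 470.4 to 571.0 CPM in KO libraries, without overlap (log2 fold change -0.27, edgeR adjusted p 0.0526, and 0.0356 in DESeq2). Cr2, which encodes CD21/35, was at 980.8 to 1166 CPM although the label gives the gate as CD21/35-. Cd79b, a signalling chain of the B cell receptor, had 720.3 to 761.6 CPM in the WT libraries and 926.6 to 1015 CPM in the KO libraries, and it was called lower in WT (log2 fold change -0.39, edgeR adjusted p 0.000358). Summed markers of myeloid cells, 11 of 12 with a row and none called, ranged over 134 to 160 CPM in WT and over 111 to 125 CPM in KO, without overlap. The highest library had 32.2 CPM for Tyrobp, 29.1 CPM for Csf1r and 4.29 CPM for Lyz2. Summed markers of NK cells, 6 of 7 with a row, ranged over 8.74 to 16.1 CPM in WT and over 7.55 to 7.63 CPM in KO, also without overlap. Those of T cells, 10 of 12 with a row, were at 52.1 to 73.3 CPM in WT and 38.4 to 58.0 CPM in KO. Lck made up most of that sum, at 33.0 to 56.5 CPM in WT and 29.7 to 45.1 CPM in KO. Cd3d was at most at 4.39 CPM, and Cd3g was at 0 in 1 KO library. The part of these other cells in the receptor results was not tested. Of 4 plasma cell markers with a row, Irf4 made up most of the summed level, at 330.6 to 401.6 CPM in the WT libraries and 456.4 to 507.3 CPM in the KO libraries. It was called lower in WT (log2 fold change -0.38, edgeR adjusted p 0.0043), and the call was lost without WT replicate 1 (0.0548) and without KO replicate 3 (0.0696). The other 3 were not called, with log2 fold changes of 0.36 for Sdc1, 0.02 for Xbp1 and 0.00 for Prdm1.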

How the data were processed

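RNA from 6 samples, 3 per genotype, was sequenced with a kit that reads transcript 3′ ends. The authors aligned reads to mm10 with STAR and counted them per gene with HTSeq, and the deposited values are raw counts per gene, with no normalization. Which annotation and tool versions were used, and whether strand was, is not given in the sources used here. Every gene in the table had at least 10 counts in all. The receptors and lists were chosen with earlier results of these data known.

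Counts were tested with edgeR 4.0.16 (filterByExpr, TMM factors, robust quasi-likelihood F test, WT over KO, Benjamini-Hochberg over 10514 genes) in R 4.3.3. Alternatives used DESeq2 1.42.0 and limma 3.58.1. The fit was tested on simulated data with 200 changed genes, drawn from genes above a minimum mean count. Ratios to Gpr174 were tested by exact permutation of the libraries in SciPy 1.17.1. For ratios with limma, 0.5 was added to counts. For pattern likeness, a prior of 2 counts was used. Replicates differed by more than counting noise (chi-square per degree of freedom at least 6.89), and intervals and floors cover counting error only. Floors are 3 counts per library. Genes named are the 6 receptors, called genes of each list or else its 2 most abundant tested genes, annotated neighbours, the 3 nearest patterns, and markers by summed level. Single markers, and Gpr183 under each alternative, were named after their values were seen. Protein sequences were not used here, and 1 marker gene with the sum that holds it is not reported here.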

Additional observations from a re-analysis of the deposited data

How the results depend on the processing

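Of 80 alternative values of the 5 receptor fold changes, 66 kept their direction and their side of the threshold, 14 kept only their direction and 0 reversed. P2ry10 and Gpr132 kept their calls throughout. The number of genes called was 191, and 91 to 183 when 1 library was left out, with the fewest without KO replicates 2 (113) and 3 (91). The 5 receptor calls became 2 to 5 when 1 library was left out: 3 without WT replicate 1, 2 without WT replicate 3, and 3 without each of KO replicates 1, 2 and 3. They became 4 under limma-voom, without robust dispersions, and under offsets for GC content, an alternative chosen after seeing the data. The 0 calls among the listed receptors and enzymes became 1, Gpr183, under DESeq2, under the replicate block, without WT replicate 2 and without KO replicate 1, a range of 0 to 1 when 1 library was left out. The fold of Gpr171 against that of Gpr174 ranged from -0.045 to 0.112 when 1 library was left out. For the other changes, the cause was not tested. Per kilobase of the longest transcript, WT levels were 10.3 (P2ry10), 2.96 (Gpr132), 7.96 (Gpr171) and 3.16 (Gpr18) times that of Gpr174, from the lengths alone. Same-numbered WT and KO libraries correlated at 0.05, 0.014 and 0.043 in their deviations from the group means, so the numbers were not taken as pairs, although each library correlated best with its own number. With a replicate block, 281 genes were called, all 5 receptors among them, and the adjusted p of Gpr183 was 0.00171. The depth leaves Gpr34 unmeasured.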
